A study of Mus musculus and Rattus norvegicus with 2 samples.

Results

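Sequences that the deposited annotation assigned to a GenBank entry of the type mRNA were described in sperm of the mouse and of the rat. They were all rows whose annotation ends in mRNA, and they numbered 32497 of 89179 distinct mouse sequences and 51803 of 137388 distinct rat sequences. The study counted RNAs of 18 to 45 nt in purified sperm of the cauda epididymis, the last segment of the duct that matures and stores them. The groups were C57BL/6 mice of 2 months and Sprague Dawley rats of 450 g described as young adults, with no treatment or genetic change named in the labels. Each species had 1 library, made from Trizol-extracted total RNA of purified sperm, with the number of animals not given in the labels. With no replicates there was no test, and the intervals below are exact 95% intervals that cover counting error only.

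Mature sperm are thought to make almost no new RNA, and the mRNA pieces they hold are largely remains of transcripts made earlier, in spermatids. Spermatids pack DNA with protamines and build the tail, so their messages encode such proteins. rRNA and tRNA are far more abundant than any mRNA in most cells, and cloned cDNA entries filed as mRNA can contain stretches of them. An mRNA label therefore names the entry that a sequence matched, and the same stretch may also exist in another RNA.

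The label held 62294 of 691381 listed mouse reads, or 9.01% (8.94 to 9.08), and 469917 of 2102735 listed rat reads, or 22.3% (22.29 to 22.4). A sequence was called sharing when it had at least 1 run of 18 bases in common, in read orientation, with a row labelled tRNA, rRNA or mitoRNA in the same library. Sharing sequences held 44.1% of the mouse mRNA-labelled reads (43.7 to 44.5) and 90.9% of those of the rat (90.8 to 91.0). By distinct sequences the shares were lower, 23.2% in the mouse and 59.8% in the rat. In the rat 68.0% of the reads and 45.99% of the sequences under the label held a stretch that was also listed as rRNA.

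The labels overlapped with each other in the mouse. There, 41.5% of the mRNA-labelled reads shared with rRNA rows, 17.9% with mitoRNA rows and 5.98% with tRNA rows, and 19.8% shared with more than 1 of the 3 labels. Only 0.555% of the mouse reads shared with mitoRNA rows and neither of the others. In the rat 16.03% shared with mitoRNA rows, 8.90% with tRNA rows and 1.97% with more than 1 label, and 15.1% shared with mitoRNA rows alone. The mitoRNA overlap of the mouse was therefore almost all with stretches that were listed as rRNA or tRNA as well, while that of the rat was mostly not.

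The most abundant sharing sequences are shown beside the labelled sequence they overlap, because the pairs show nearly the same stretch under different labels. Capitals mark the bases in common. The most abundant rat sequence of the label was 1 base longer than an rRNA-labelled sequence of nearly the same count. The mitochondrial partner was 24 nt long and lay within the mRNA-labelled sequence of 32 nt, which matched its entry on the minus strand. The tRNA partner was 20 nt long, lay within the mRNA-labelled sequence, was shorter at both ends and carried 2 mismatches to its own annotation. This last pair ranked lower in abundance and was picked after its values were seen, to show a tRNA partner.
Rat FQ225375.1, labelled mRNA, 23277 reads: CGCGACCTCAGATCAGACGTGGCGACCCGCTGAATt
Rat NR_046239.1, labelled rRNA, 20481 reads: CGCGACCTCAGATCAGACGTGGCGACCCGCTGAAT
Rat FQ224513.1, labelled mRNA, 15320 reads: CGGGGCTACGCCTGTCTGAGCGTCGC
Rat NR_046238.1, labelled rRNA, 9029 reads: cCGGGGCTACGCCTGTCTGAGCGTCGCt
Rat FQ212915.1, labelled mRNA, 11851 reads: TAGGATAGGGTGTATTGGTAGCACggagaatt
Rat K00434.1, labelled mitoRNA, 184 reads: TAGGATAGGGTGTATTGGTAGCAC
Rat FQ226040.1, labelled mRNA, 7208 reads: tcccacATGGTCTAGCGGTTAGGATTcctg
Rat row labelled tRNA, 14 reads: ATGGTCTAGCGGTTAGGATT

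In the first rRNA pair, sequences that differed by 1 end base stood under different labels, with 23277 reads (22979 to 23578) as mRNA and 20481 as rRNA. Shorter forms of the same end were labelled mRNA too, with 14434 reads at 34 nt and 11223 reads at 30 nt under other entries. In the last pair the mRNA-labelled sequence had 7208 reads (7043 to 7376) and its tRNA-labelled partner 14. In the mouse the sequences of this kind were smaller: the most abundant, under entry BC116713.1, had 1271 reads (1202 to 1343), and its rRNA-labelled partner, 1 base shorter, had 662.

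Sequences that shared no 18-mer numbered 24942 with 34824 reads for mouse sperm and 20833 with 42707 reads for rat sperm. They are called unshared below. At the threshold, 360 mouse and 1511 rat sequences had a longest common run of exactly 18 bases and were counted as sharing, and 215 mouse and 820 rat sequences had one of 17 bases and were counted as unshared. The median length of those just inside was 20 nt (mouse) and 23 nt (rat), and of those just outside 22 and 24 nt.

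Leaving out the sharing rows moved the label toward short reads in both libraries. A longer read holds more 18-mers and so had more chances to be called sharing. How much of the difference in length follows from that rule was not tested. The modal length of reads was 36 nt in sharing and 21 nt in unshared rows of the mouse, and 30 nt and 21 nt in the rat. Reads of 20 to 24 nt made up 14.98% of the sharing and 33.2% of the unshared mouse reads (32.7 to 33.7), and 12.5% and 45.2% (44.7 to 45.7) of those of the rat. At 36 to 45 nt the shares were 34.6% and 22.6% in the mouse, and 15.4% and 4.71% in the rat. Over all mRNA-labelled reads, lengths ran from 18 to 69 nt in the mouse and up to 71 nt in the rat, so that 2.57% of mouse reads and 0.283% of rat reads were longer than the 45 nt stated for the fraction.

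The peak at 21 nt was made mostly of reads whose sequence did not match its entry exactly. The annotation allows up to 2 mismatches. Of the 5094 unshared mouse reads of 21 nt, 4100 carried 2 mismatches, and of the 7218 rat reads 3968 did. Among unshared sequences with 0 mismatches the modal read length of the mouse was 35 nt, with 7.06% of the reads, and only 3.98% were of 21 nt. In the rat it remained 21 nt, at 10.5%. With 2 mismatches, 39.2% of mouse reads and 39.8% of rat reads were of 21 nt.

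**Figure D1:**
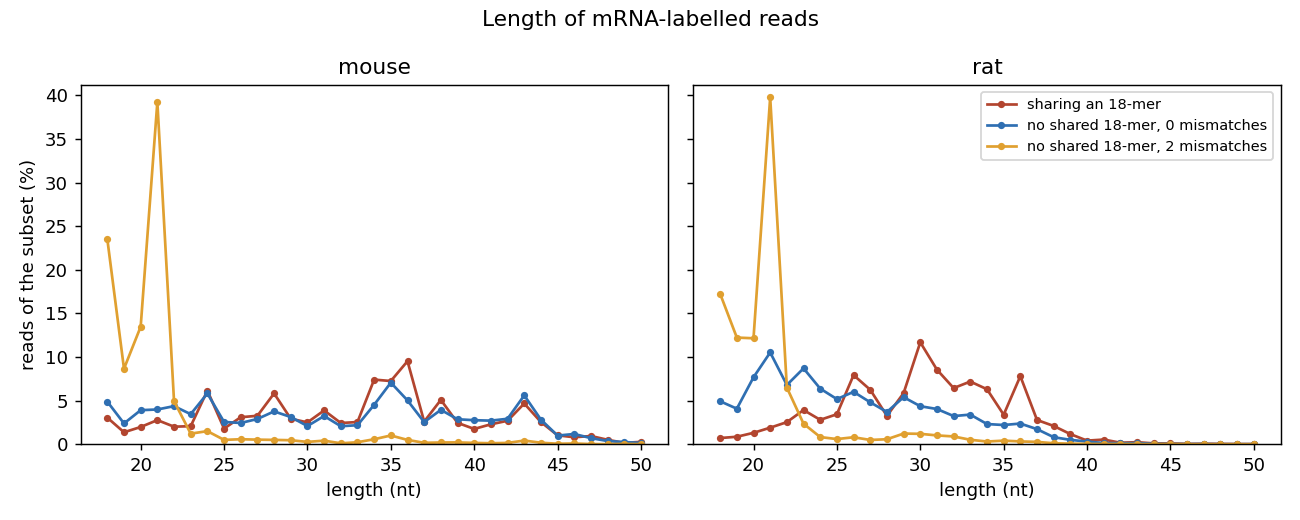
Length of mRNA-labelled reads in nt (x axis, shown to 50 nt) against the share of each subset's reads in percent (y axis), 1 library per species. The unshared reads with 2 mismatches peak at 21 nt, with 39.2% in the mouse and 39.8% in the rat, while the sharing reads of the mouse peak at 36 nt and those of the rat at 30 nt. Much of the peak at 21 nt is 1 sequence in each library, with 2658 mouse and 2744 rat reads.

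The reads of these short sequences with 2 mismatches were rich in runs of G. A sequence was counted as G-run when it held at least 3 separate runs of at least 3 G. G-run sequences held 55.4% of the unshared mouse reads with 2 mismatches, against 8.68% of those with none and 5.07% of all sharing reads. In the rat the shares were 47.2%, 3.16% and 1.24%. By distinct sequences the shares with 2 mismatches were lower, 22.2% in the mouse and 13.8% in the rat. With 0 mismatches they were 5.99% and 3.97%. Few sequences carried much of the reads: the 10 most abundant held 41.7% (mouse) and 43.8% (rat) of the unshared reads with 2 mismatches.

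The most abundant unshared sequence of each library was of this kind and is shown with 1 further example each, which was picked for its runs of G after the values were seen. Runs of G are in capitals. The mouse entries belong to Mogs, which encodes a glucosidase that trims new glycoproteins, and to Zfp46, a zinc finger gene.
Mouse NM_020619.2 (Mogs), 2658 reads: caGGGtGGGcGGGtcatGGGc
Mouse NM_009557.3 (Zfp46), 139 reads: aaGGGctGGGGctGGGtGGGc
Rat NM_001127551.1, 2744 reads: caGGGactcaGGGGGGGaGGG
Rat NM_019311.1, 416 reads: ctGGGactGGGcaGGGcaGGG

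All 4 were 21 nt long and had 2 mismatches to their entry, and none matched a mouse transcript of GENCODE M21 exactly. Mogs lies on chromosome 6, from 83115496 to 83118898 on the plus strand of GRCm38, but a sequence with 2 mismatches is not thereby placed there. The Mogs-labelled sequence alone was 2658 of the 34824 unshared mouse reads (2558 to 2761 by counting error), and its form without the last base added 233 reads. It was listed with 2 reads in the rat. The leading rat sequence, 2744 reads (2642 to 2849) on the minus strand of its entry, was listed with 3 reads in the mouse. The leading unshared sequence of each library was thus near absent from the other. Next in the mouse stood a sequence of 21 nt under BC049254.1 with 464 reads and one of 18 nt under the entry of Homez with 366, both with 2 mismatches. In the rat the next were of 20 to 22 nt, with 749 reads under FQ225375.1, 615 under FQ223604.1 and 608 under FQ214607.1, and had at most 1 mismatch.

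Sequences with 0 mismatches were mostly plus, and those with mismatches were less often so. Plus means that the read runs in the direction of its entry, which need not be that of the message. In the tenth leading unshared mouse entry, 43 of 45 sequences were minus, yet 24 matched D10Wsu102e transcripts in sense. A minus sequence is therefore not by that alone antisense to a message. Of the unshared sequences with 0 mismatches, 94.4% (94.1 to 94.8) were plus in the mouse and 97.0% (96.7 to 97.3) in the rat. With 1 mismatch 54.6% and 54.9% were plus, and with 2 mismatches 35.5% and 45.7%. By reads the unshared values at 1 and 2 mismatches were 51.8% and 55.7% in the mouse and 57.5% and 23.6% in the rat, so the order of these classes depended on the weighting. Of the sharing sequences with 1 mismatch, 4.81% were plus in the mouse, 145 of 3017, and 44.0% in the rat, and with 2 mismatches 27.95% and 35.8%.

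Over all mismatch classes, 79.9% of the unshared and 52.7% of the sharing sequences were plus in the mouse, and 80.5% and 62.2% in the rat. Weighted by reads, the difference was 77.9% against 76.0% in the mouse and went the other way in the rat, 71.3% against 79.1%. With 0 mismatches both orders turned around, with 92.3% of the unshared and 93.6% of the sharing mouse reads plus, and 91.9% and 82.8% of those of the rat. Among the other labels, 99.9% of the rRNA-labelled mouse reads and 94.1% of those of the rat were plus, and 94.7% and 99.9% of the tRNA-labelled reads. The mitoRNA-labelled reads stood at 82.5% and 94.6%, and reads under all other labels at 94.7% and 78.4%. For mRNA-labelled reads as a whole the values were 77.0% and 78.4%. The rat value was thus below those of the rRNA, tRNA and mitoRNA labels and close to that of all remaining labels together.

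**Figure D2:**
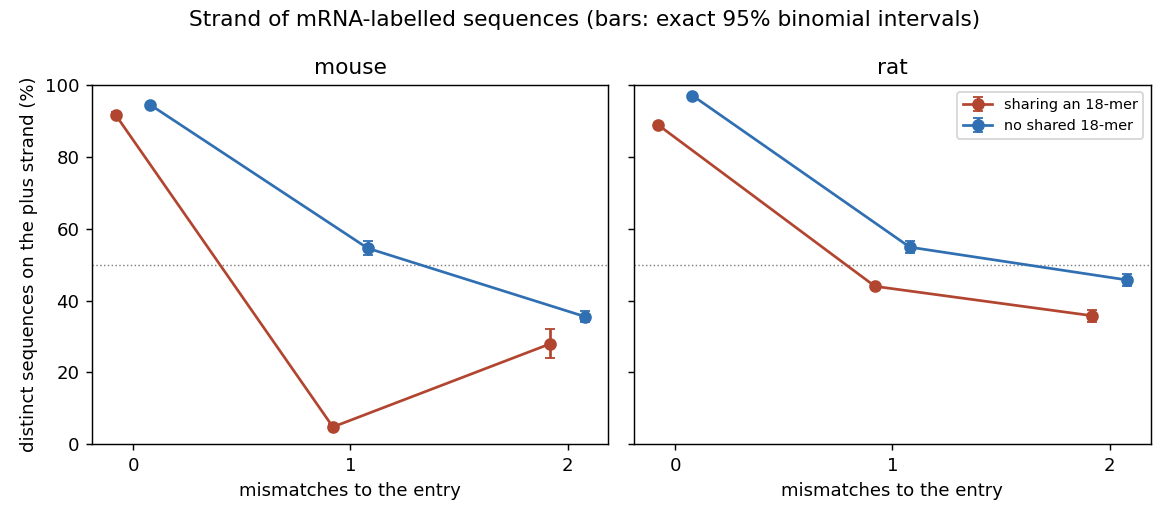
Share of distinct mRNA-labelled sequences on the plus strand in percent (y axis) by mismatches to the entry (x axis), with exact 95% binomial intervals and a dotted line at an even split. Unshared sequences with 0 mismatches stand at 94.4% (mouse) and 97.0% (rat), and sharing mouse sequences with 1 mismatch at 4.81%.

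The label was spread over 14851 entries in the mouse and 9320 in the rat, of which 71.3% and 65.7% had 1 sequence each. Sharing sequences were held by fewer entries than unshared ones. The 10 entries with most sharing sequences had 73.7% of all mouse and 39.0% of all rat sharing sequences, while the 10 leading unshared entries had 3.71% and 8.19% of the unshared sequences. The unshared values moved to 6.50% and 11.8% with 18-mers only from rows of at least 10 reads, to 15.2% in the rat with 22-mers, and to 4.71% in the rat without the rows linked to sharing ones. Sharing sequences came from 613 mouse and 859 rat entries, and unshared ones from 14471 and 8934.

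Entry BC020277.1 led the mouse with 1896 sequences and 10513 reads, all on the plus strand, and 1894 of them were sharing. Of these sequences, 1892 shared with rRNA rows and 1259 with mitoRNA rows, and 79 matched transcripts of Lars2, which encodes a mitochondrial leucyl-tRNA synthetase, exactly. The next entries had fewer and mostly minus sequences. AJ428208.1 had 821, all minus, of which 624 were sharing, and AF252871.1 had 564, all minus, with 533 sharing. In AL355742.1 all 522 were plus, with 441 sharing, and in BC116713.1 all 443 were plus and all were sharing. In 7 of the 10 leading mouse entries most sequences were minus, and the share of sharing sequences ran from 76.0% to 100% over the 10.

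In the rat AB221345.1 led with 2382 sequences, all minus, of which 2110 shared with rRNA rows. AY539885.1 followed with 1926 sequences and 20323 reads, nearly all minus, of which 1806 were sharing. EU605813.1 had 1812, of which 46.1% were plus, a near-even split that none of the other 9 had. FQ216953.1 had 1459, all minus, and 1212 of them shared with mitoRNA rows, and FQ214607.1 had 696, all plus, of which 621 shared with tRNA rows. Again 7 of the 10 leading entries were mostly minus, and the share of sharing sequences ran from 81.6% to 97.2%. Entries whose name starts with FQ held 75.2% of the rat reads of the label, and 95.7% of those reads were sharing. RefSeq mRNA entries, which start with NM, held 4.55% of the rat and 28.5% of the mouse reads, of which 24.6% and 9.52% were sharing.

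**Figure D3:**
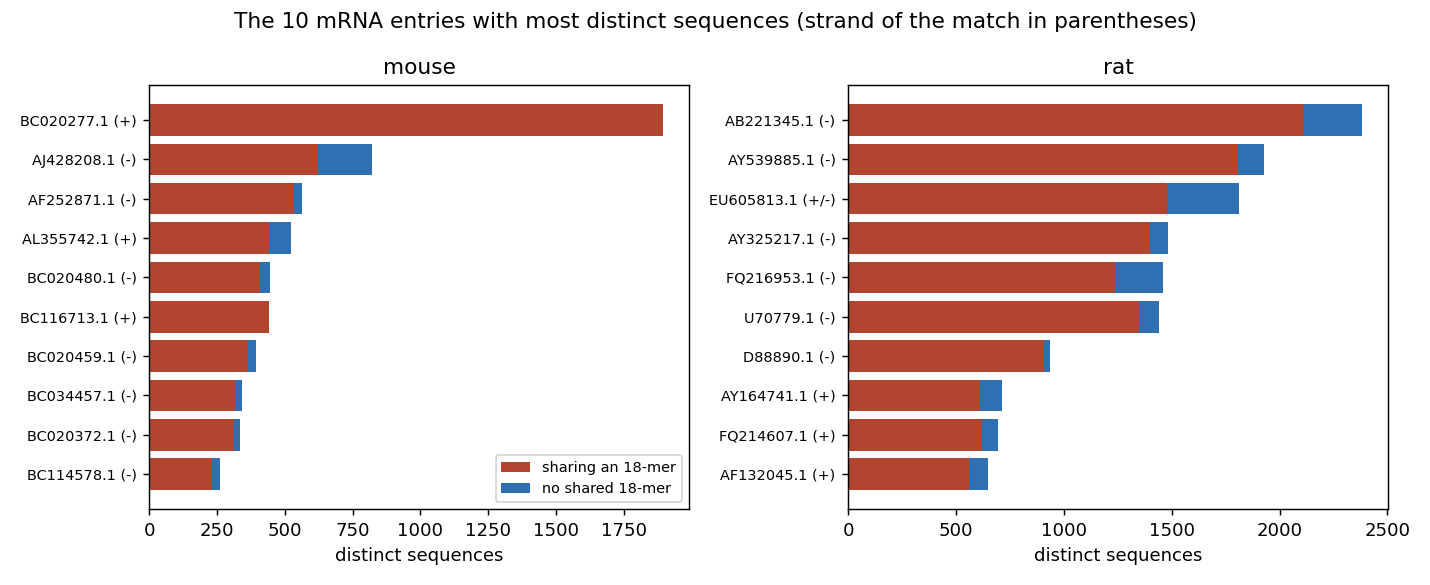
The 10 entries with most distinct mRNA-labelled sequences in each library, with the number of distinct sequences (x axis) that share an 18-mer (red) or do not (blue) and the strand of over 90% of them in parentheses (+/- where neither strand reaches that). Red fills most of every bar, at 76.0% to 100% for the mouse entries and 81.6% to 97.2% for those of the rat.

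Without the sharing rows the order of entries changed in both libraries. Of the 10 leading entries, 2 mouse and 5 rat ones were also among the 10 leading unshared entries. AJ428208.1 now led the mouse, with 197 unshared sequences, all minus, followed by AY140896.1 with 140 and AY053456.1 with 129. The sixth was the RefSeq entry of Odf1, NM_008757.3, with 64 sequences, all plus, of which 57 matched Odf1 transcripts exactly. Odf1 encodes a protein of the outer dense fibers, which stiffen the sperm tail. Git1, which encodes an ADP-ribosylation factor GTPase-activating protein, was the ninth with 46 sequences, all plus. In the rat EU605813.1 led with 334, followed by AB221345.1 with 272 and FQ216953.1 with 224. The tenth rat entry, NM_024126.5, had 96 unshared sequences, all plus, and 49 of them matched mouse Odf1 exactly. Rat entries are given by their identifiers, since no rat annotation was used here.

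The unshared rows also had far fewer copies per sequence. The mean was 3.76 reads per sequence in sharing and 1.40 in unshared rows of the mouse, and 13.8 and 2.05 in the rat, with a median of 1 in each. Sequences seen once made up 71.7% of the sharing and 90.5% of the unshared mouse sequences, and 62.5% and 89.1% of those of the rat. At 100 or more copies stood 33 sharing and 8 unshared mouse sequences, and 428 sharing and 36 unshared rat sequences. Those 428 held 73.0% of the sharing rat reads. By comparison the mean was 5.51 and 17.9 for rRNA-labelled and 78.0 and 53.6 for tRNA-labelled sequences, mouse first.

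**Figure D4:**
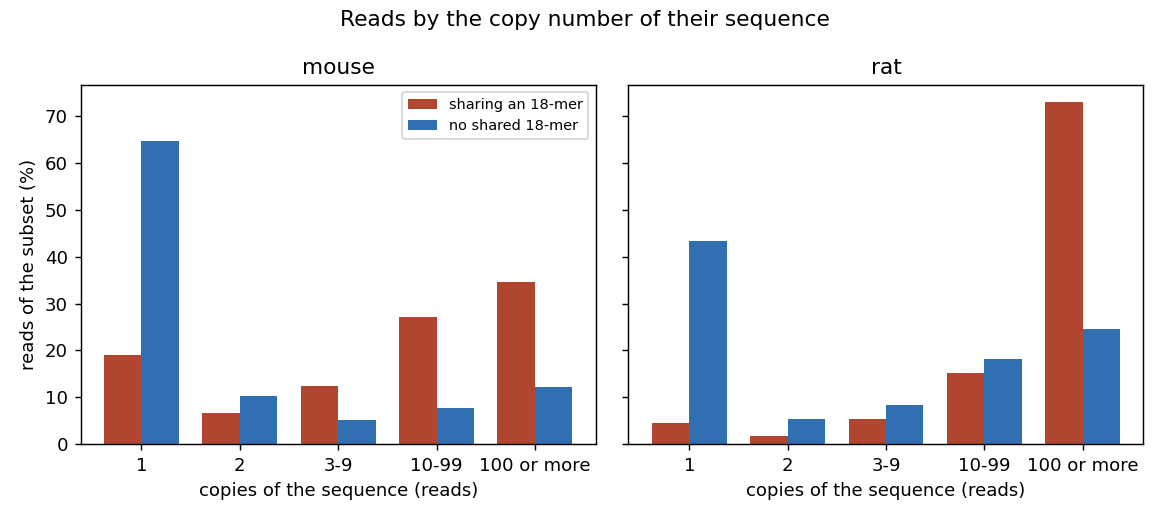
Share of the reads of each subset in percent (y axis) by the number of copies of their sequence (x axis), 1 library per species. Sequences seen once hold 64.6% of the unshared mouse reads and 43.4% of those of the rat, and sequences of 100 or more copies hold 73.0% of the sharing rat reads.

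Some unshared rows were still tied to sharing ones. In the rat 2741 unshared sequences, with 37.96% of the unshared reads, had an 18-mer in common with a sharing mRNA-labelled row. In the mouse there were 449, with 1.74% of the reads. Leaving these out as well lowered the mean copies of the rat from 2.05 to 1.46 and left that of the mouse at 1.40. The linked rat sequences averaged 5.91 copies, against 1.38 in the mouse. Of the unshared rat sequences, 2137, with 33.8% of the unshared reads, shared an 18-mer with tRNA-, rRNA- or mitoRNA-labelled mouse rows. In the other direction there were 244 mouse sequences, with 1.04% of the reads. Rows linked or sharing an 18-mer with the remaining labels of their own library held 48.8% of the unshared rat and 8.66% of the unshared mouse reads. These sets can overlap.

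Most unshared mouse sequences with 0 mismatches were stretches of known messages. Of the 17936 unshared mouse sequences with 0 mismatches, 16082 (89.7%, 89.2 to 90.1) matched a protein-coding transcript of GENCODE M21 in sense, and 813 matched only in antisense. With 1 mismatch 2.39% and with 2 mismatches 3.66% matched in sense. Only exact matches counted, so a sequence with mismatches could not match a transcript identical to its entry. These 2 low shares therefore do not show whether such sequences come from messages. Sharing sequences with 0 mismatches matched in 8.66% of cases. Of the unshared rat sequences with 0 mismatches, 2674 of 13479 (19.8%) were identical to a stretch of a mouse protein-coding transcript in sense.

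**Figure D5:**
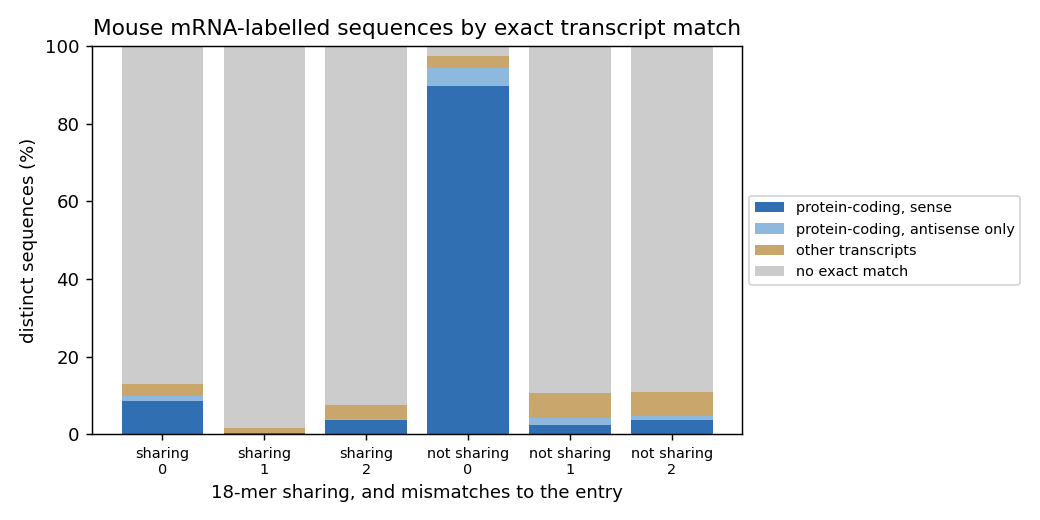
Mouse mRNA-labelled sequences by 18-mer sharing and mismatches to the entry (x axis) and the share of distinct sequences in percent (y axis) that exactly match a GENCODE M21 transcript. The sense match to protein-coding transcripts fills 89.7% of the unshared sequences with 0 mismatches and under 10% of every other bar.

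Of the matching mouse sequences, 15392, with 17238 reads, fell in 1 gene only, and together they touched 5955 of 21924 protein-coding genes (27.2%). Among these genes 53.6% had 1 sequence, and the mean was 1.12 copies per sequence. By the middle base, 65.8% of the sequences lay in coding sequence, 11.7% in the 5′ UTR and 3078 sequences in the 3′ UTR. In the rat 2512 sequences fell in 1453 genes by identity with the mouse, 75.8% of them in coding sequence. Both libraries touched 980 genes, 16.5% of the mouse and 67.4% of the rat ones.

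Prm2, Akap12, Gpx3, Odf1 and Smcp had the most mouse sequences, and 3 of these 5 genes are on the list of spermatid and sperm transcripts described below. Prm2, which encodes protamine 2, had 106 distinct sequences and 118 reads, with 69 of the sequences in its coding part. Odf1 had 87, with 82 in its coding part, and Smcp, which encodes a cysteine-rich protein of the sperm mitochondrial capsule, had 81, with 42 in its 5′ UTR. Per kilobase of the longest transcript, Prm2 had 157 sequences, Smcp 94.1 and Odf1 78.7. The leading genes outside the lists were chosen after their values were seen. They were Akap12, which anchors protein kinase A, with 104 sequences and 16.8 per kilobase, Gpx3, a glutathione peroxidase, with 89 and 55.8, Gpat4, an enzyme of glycerolipid synthesis, with 65, and Clu, which encodes the secreted chaperone clusterin, with 62.

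Examples from coding sequence are shown because they are whole message stretches with 0 mismatches, read in sense at low copy. Prm2 lies on chromosome 16, from 10791380 to 10796134 on the minus strand of GRCm38, Odf1 on chromosome 15, from 38219203 to 38226735 on the plus strand, and Oaz3, which encodes an ornithine decarboxylase antizyme of the testis, on chromosome 3, from 94432414 to 94443915 on the minus strand.
Mouse Prm2, 3 reads: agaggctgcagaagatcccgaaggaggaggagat
Mouse Odf1, 3 reads: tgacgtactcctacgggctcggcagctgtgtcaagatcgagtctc
Mouse Oaz3, 2 reads: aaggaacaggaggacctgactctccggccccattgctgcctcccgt

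All 20 genes of a list of spermatid and sperm transcripts had at least 1 mouse sequence, with a median of 14.5 and 499 sequences together, against a median of 0 over all protein-coding genes, of which 27.2% had a sequence. The range ran from 2 for Akap4, Ldhc, Meig1 and Spag6 to 106 for Prm2. Values in between were 40 for Oaz3, 38 for Tcp11, 16 for Prm1, 15 for Tnp2 and 3 for Tnp1, the last 3 encoding proteins that pack the DNA. The members thus differed widely, and the list held the gene with most sequences of all. This list and those below were chosen with earlier results of these data known, so their contrasts with all genes are descriptive only.

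Markers of other cell types were counted in the same way, against the 27.2% of all protein-coding genes with a sequence. Of 15 genes of the epididymal epithelium 14 had a mouse sequence, with a median of 5. Gpx5, a secreted glutathione peroxidase, had 44, Crisp1, a secreted sperm-binding protein, 27, and Adam7 26. All 5 genes of stroma and muscle had a sequence, led by Col1a1, a collagen, with 27. Of 5 leukocyte genes 2 did, Cd52, a small surface protein that the epididymis also makes, with 25 and Lyz2 with 2, and none of the 4 hemoglobin genes found in the annotation did. The part of these cells in the mouse fragments was not tested, and in bulk RNA fewer cells of a type and less RNA per cell cannot be told apart.

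Of 79 ribosomal protein genes 5 had a mouse sequence (6.33%), with 7 sequences in all, and of 100 histone genes 16 did, both under the 27.2% of all genes. Sequences found in more than 1 protein-coding gene were left out of these counts, which touches families with near-identical copies such as histones. Of 13 mitochondrially encoded messages 4 had one (30.8%), led by mt-Nd4 with 15. These counts hold only unshared sequences, and sequences sharing with mitoRNA-labelled rows were left out by that rule. The 30.8% therefore cannot be compared with the share of all genes. In the rat 6.63% of all protein-coding genes had a sequence by identity with mouse transcripts. There, 28 of 79 ribosomal protein genes had a sequence, 11 of the 20 spermatid genes, 1 of the 15 epididymal genes and 4 of the 5 stromal genes. Odf1 led in the rat, with 62 sequences and 72 reads, followed by Odf2, another tail fiber gene, with 37, Oaz3 with 35 and Col1a1 with 30. These rat counts cover only stretches that are the same in both species, so they are not set against those of the mouse.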

How the data were processed

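The deposited tables hold counts, the number of reads of each distinct sequence, with the strand, the database entry and up to 2 mismatches, per the file headers. The submitters' processing notes name Bowtie 0.12.7, mm9 and rn5 without their roles. How a sequence with several matches got its entry was not stated in the sources used. The depth was 691381 listed mouse reads and 2102735 listed rat reads. For a sequence at 0, 3 counts set the limit, a share of 0.000434% and 0.000143%.

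Sequences on the minus strand were reverse-complemented: all 47468 checked mismatches then stood where the tables say. In the mouse 2535 rows, 323 of them labelled mRNA, have a date in place of an identifier and no count. They entered counts of sequences and 18-mers but not of reads. A line with the total was left out. The 18-mer step was tested on simulated data. Exact matches to GENCODE M21 transcripts (GRCm38) were made in Python 3.11.15 with pandas 2.3.3, and regions were assigned by the middle base. Intervals are Clopper-Pearson for shares and Poisson for counts (scipy 1.17.1). PCR copies are not independent molecules.

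The entries named were the 10 with most distinct sequences over all and over unshared rows, with the 5 most abundant sequences and members of the gene lists. Others were picked after their values were seen: the sequences of Zfp46 and FQ226040.1, and the leading genes outside the lists. The sequences, lists and rules were chosen with earlier results of these data known.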

Additional observations from a re-analysis of the deposited data

Results flagged for a closer look

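The change between sharing and unshared rows went in opposite directions in the mouse and the rat for 4 of 14 quantities compared. This difference between species was not tested, since each had 1 library. The plus-strand share of reads was 1.88 percentage points higher in the unshared rows of the mouse and changed by -7.78 points in the rat. Among sequences with 0 mismatches these directions turned around, as given above. Reads that begin with T changed by 4.46 points in the mouse, from 17.2% to 21.7%, and by -6.02 points in the rat, from 21.3% to 15.3%. Reads that begin with C changed by 11.996 points in the mouse, from 24.1% to 36.1%, and by -7.38 points in the rat, from 47.5% to 40.1%. By distinct mouse sequences the share was 27.6% in sharing and 27.8% in unshared rows, and among unshared mouse reads with 0 mismatches it was 28.6%. The Mogs-labelled sequence, which begins with C, was 2658 of the 34824 unshared mouse reads. Entries with 1 sequence changed by -3.79 points in the mouse, from 75.9% to 72.1%, and by 11.4 points in the rat, from 55.8% to 67.2%.

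The 323 mRNA-labelled mouse rows without a count would add 2932 reads if the month of the date is read as the count, 7 to 12 each. Of these reads 74.0% were in sharing rows, against 44.1% of the mRNA-labelled reads with a count. The latter covers rows of all copy numbers, so the sets are not alike. Among mouse rows with a count, 3388 of 5162 reads at 3 to 9 copies were in sharing rows. At 10 to 99 copies 7478 of 10168 reads were.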

How the results depend on the processing

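No paired analysis was possible because each species had 1 library. These values per library were recomputed: the share of mRNA-labelled reads that share, and, over unshared rows, the plus-strand share and the share of 20 to 24 nt by reads, the share of sequences in the 10 leading entries, and the mean copies. Of 110 recomputed values, 23 stayed within the interval of the reported value and 87 left it, with each value from 18-mers on either strand among the former. In each setting the rat had the higher sharing share. Values are given in that order, the mouse before the rat, and those left out stayed within their interval. The cause of the moves was not tested.

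With 16-mers sharing was 45.3% and 92.1%, the plus strand 79.2% and 72.2%, the leading entries 3.44% and 6.29%, and copies 1.92 in the rat. With 22-mers the values were 38.9% and 78.02%, 76.8% and 80.0002%, 34.5% and 38.01%, 5.48% and 15.2%, and 1.46 and 3.79. With 18-mers only from rows of at least 10 reads they were 37.8% and 84.5%, 76.8% and 72.9%, 31.8% and 36.3%, 6.50% and 11.8%, and 1.45 and 2.68.

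Over sequences of at least 2 reads they were 64.3% and 94.4%, 72.7% and 63.9%, 53.99% and 53.6%, 6.96% and 21.5%, and 5.23 and 10.6. At 10 reads they were 70.9% and 95.4%, 73.1% and 59.3%, 74.7% and 59.7%, 37.9% and 43.8%, and 73.4 and 54.05. The filter itself raises the mean copies. With perfect matches only they were 50.6% and 93.4%, 92.3% and 91.9%, 21.5% and 40.1%, 3.03% and 5.46%, and 1.20 and 2.003.

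Without the 10 most abundant sequences sharing was 41.5% and 88.02%, and in the mouse the plus strand was 75.4%, 20 to 24 nt 26.98% and copies 1.26. By distinct sequences the first 3 values were 23.2% and 59.8%, 79.9% and 80.5%, and 22.3% and 34.3%, and the others have no such form. With counts restored from the month, which apply to reads of the mouse, sharing was 45.4%, the plus strand 77.2% and copies 1.43.

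Settings chosen after seeing the data were 18-mers from both libraries, with 44.7% and 93.98%, 78.4% and 67.8%, 44.1% of 20 to 24 nt in the rat, 3.39% and 6.41%, and 1.51 copies in the rat, and the removal of linked rows, with 45.1% and 94.4%, 78.4% and 68.1%, 42.6%, 3.37% and 4.71%, and 1.46 in the same order.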
